A study of Mus musculus with 6 samples.

Results

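The genes described here encode the subunits of the respiratory chain that are made from nuclear DNA. They were chosen by symbol among the protein-coding entries of the table, as symbols that begin with Ndufa, Ndufb, Ndufc, Ndufs or Ndufv and a number, with Uqcr or with Atp5, as Sdha to Sdhd, or as Cox4 to Cox8. The rule found 80 genes of the 22956 in the table (15517 of them protein-coding): 37 of complex I, 4 of complex II, 8 of complex III, 15 of complex IV and 16 of complex V. They lie on 19 chromosomes. Of these, 78 had enough counts to be tested, and the remaining pair, Cox6a2 and Cox7a1, stayed near 0 in every library. The grouping follows the symbols, so Ndufa4 is listed under complex I although it is known as a subunit of complex IV, and Cox7a2l is counted under complex IV although it is a factor that joins complexes into supercomplexes. The mitochondrially encoded subunits, Cox8b and Atp5sl were not analysed here. A further 5 entries matched the symbols but are annotated as pseudogenes and were left out.

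The respiratory chain sits in the inner mitochondrial membrane. Complexes I and II pass electrons from NADH and from succinate to ubiquinone, complex III passes them on to cytochrome c, and complex IV hands them to oxygen. Complexes I, III and IV pump protons as they do so, and complex V, the ATP synthase, uses the returning protons to make ATP. In most complexes a few subunits carry the chemistry and many small accessory subunits surround them, and smooth muscle of the arterial wall uses the chain beside glycolysis to supply ATP for contraction.

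RNA was sequenced from 6 libraries of mouse aorta, labelled as smooth muscle cells, from C57B6 mice aged 30 weeks that had been on a western diet for 20 weeks. The 3 WT libraries carry the genotype WT/mTmG/ Myh11ERT2 and the 3 knockout libraries miR-21fl/flmTmG/Myh11ERT2, so that all 6 share the mTmG reporter, which changes colour where Cre has acted, and the inducible Cre driven from the promoter of the smooth muscle myosin gene Myh11. Cells of the aorta other than smooth muscle would keep miR-21 in such an animal, and the level of miR-21 itself was not analysed here. The labels do not say whether tamoxifen, which an inducible Cre of this kind needs, was given, so deletion was not checked and knockout is used as the name of the labelled group. The labels do not say if replicates came from different animals, and p-values therefore measure the spread between these samples, which may be technical. The question was whether the messages of the chain differ between the 2 genotypes after the same diet.

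Totals ran from 37787465 to 154384307 estimated counts per library, and the respiratory chain genes took 0.505% to 0.595% of them. Markers of smooth muscle were high in every library, with Myh11 between 5427 and 9458 CPM (counts scaled by library total). The 8 endothelial markers summed to 60.9 to 70.5 CPM, most of it from Pecam1 at 52.9 to 63.6 CPM. The others were each at or below 5.33 CPM, with Cdh5 at or below 0.58 CPM. The brown fat gene Ucp1 stayed at or below 0.0736 CPM. Other fat cell genes were mixed, with Fabp4 at 37.3 to 53.1 CPM, Cidea at 2.74 to 6.20 CPM and Dio2 at 0.221 to 2.66 CPM. Elovl3 stayed at or below 0.0915 CPM. Of 8 white or general fat cell markers only 2, Fabp4 and Plin4, had values here. Adipoq, Plin1, Lep, Cfd, Retn and Cidec were not analysed, so the level of fat cells stays uncertain. Plin4 was at 172 to 195 CPM in WT and 213 to 247 CPM in the knockout, all 3 knockout libraries higher (unadjusted p = 0.00695, adjusted p = 0.780), and its part in any result here was not tested. Of the fibroblast genes, Lum was between 706 and 4108 CPM and Dcn between 484 and 2007 CPM, and the sums of that list rest mostly on them. Ly6a was at 35.7 to 303 CPM and Pdgfra at 25.6 to 81.0 CPM. Pi16, Dpt, Clec3b and Serpinf1 were at or below 35.2 CPM. Libraries WT 1 and knockout 1 stood apart from the other 4 in blood transcripts, whose 5 markers summed to 368 CPM in WT 1 and 193 CPM in knockout 1 against 14.3 to 56.3 CPM elsewhere.

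miR-21 lowers messages that pair with its seed, bases 2 to 8, so the seed and the matching letters in the chain's 3′ untranslated regions (UTRs) are shown first. The mature RNA from RefSeq lies on chr11:86584120-86584141 of GRCm38.p6, minus strand, and its seed is in capitals:
mmu-miR-21a-5p: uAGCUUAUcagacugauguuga
The seed pairs with ATAAGCT on the message strand. Of the 77 respiratory chain genes with a 3′ UTR to search, 3 held these letters (3.90%), against 942 of 13057 tested genes (7.21%). The chain's UTRs were short, with a median of 175 bases against 1034 bases over all tested genes. The 4 matches, each within 30 bases of UTR from GENCODE M21 (GRCm38), are written along the message with the match in capitals:
Ndufb5, chr3:32751363-32751392, plus strand: tgacactgttgATAAGCTgctgatgccgtt
Ndufv2, chr17:66079420-66079449, minus strand: aacttccctacATAAGCTttattcggtttg
Ndufv2, chr17:66079149-66079178, minus strand: ttaaattttttATAAGCTttatgtcaatgt
Atp5g1, chr11:96071015-96071044, minus strand: atgcctaggccATAAGCTaggctgcttccc
Only the match in Atp5g1 is followed by the A of the longer site. These letters were in 2 of 4 coding transcripts of Atp5g1, in 1 of 4 of Ndufb5 and in 1 of 2 of Ndufv2, and the deposited counts per gene do not separate transcripts. A match of letters is a description and not a site shown to bind.

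None of the 3 genes with a match was higher in the knockout, but few of the chain's genes were. Over the chain 13 of 78 tested genes were higher, against 49.4% of all genes tested. Atp5g1, 1 of 3 genes for the same c subunit of the ATP synthase rotor, stood at 23.8, 26.8 and 26.8 CPM in WT and at 22.3, 25.6 and 25.5 CPM in knockout libraries. The log2 fold change of the knockout over WT came to -0.08 ± 0.09 (standard error, SE; adjusted p = 0.905 in edgeR's quasi-likelihood test). Ndufb5, an accessory subunit of the membrane arm of complex I, read 30.4, 33.6 and 33.7 CPM against 29.1, 30.4 and 33.1 CPM, a log2 difference of -0.08 ± 0.08 (adjusted p = 0.890). Ndufv2, a core iron-sulfur subunit at the NADH-oxidising end of complex I, read 56.9, 67.5 and 64.9 CPM against 59.2, 64.8 and 61.0 CPM, a log2 difference of -0.03 ± 0.08 (adjusted p = 0.961). In all 3 genes the libraries of the 2 genotypes overlapped. Ndufb5 and Ndufv2 are named for their matches, which were known when they were picked.

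Across the whole chain no gene passed the test. At an adjusted p under 0.05, edgeR called 0 of 78 respiratory chain genes, with a background of 0.0% of all 16654 genes tested. The smallest adjusted p among the 78 was 0.830, and the smallest in the table was 0.217. At an unadjusted p under 0.05 there was 1 gene higher, Cox6b2 (background 3.95% of all genes), and 0 lower (background 2.01%, or 5.96% in either direction). DESeq2 and limma also called 0 of the 78, while DESeq2 called 65 genes elsewhere in the table (0.301%).

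The summed level of the 80 genes was 5106, 5835 and 5611 CPM for WT and 5121, 5604 and 5513 CPM for knockout libraries. That is 5517 ± 373 CPM (SD, n = 3) against 5413 ± 257 CPM (SD, n = 3), a difference smaller than the spread within either genotype. The low library of each genotype was replicate 1. By complex, the sum was 1696 ± 115 CPM for WT and 1648 ± 68.7 CPM for knockout libraries for complex I, and 473 ± 26.4 against 473 ± 23.0 CPM for complex II. It was 515 ± 28.5 against 500 ± 22.1 CPM for complex III, 862 ± 59.5 against 850 ± 42.2 CPM for complex IV and 1972 ± 145 against 1942 ± 107 CPM for complex V (SD, n = 3 throughout). The sums of the 2 genotypes overlapped in every complex.

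The individual fold changes were small and mostly narrow in their error. Of the 78 tested genes, 73 had a 95% interval that lay within 1.3-fold of no change in both directions (background 40.9%), and 74 had one within 1.5-fold (background 59.8%). The median interval reached 0.19 on the log2 scale to either side, against 0.32 over all genes. Genes with more counts have less counting error, and the background holds many genes with few counts. The 5 genes whose interval went past 1.3-fold were Ndufa4l2, Ndufb4, Cox4i2, Cox6b2 and Atp5g2, of which Ndufb4 and Atp5g2 are named after their values were seen. All 5 were at or below 10.4 CPM in every library. So was Atp5s, at 8.75 to 9.98 CPM, whose interval stayed within 1.3-fold (-0.19 to 0.26 on the log2 scale). Cox4i2 and Ndufa4l2 also varied widely between libraries of the same genotype. The part of counting error in these wide intervals was not tested.

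**Figure D1:**
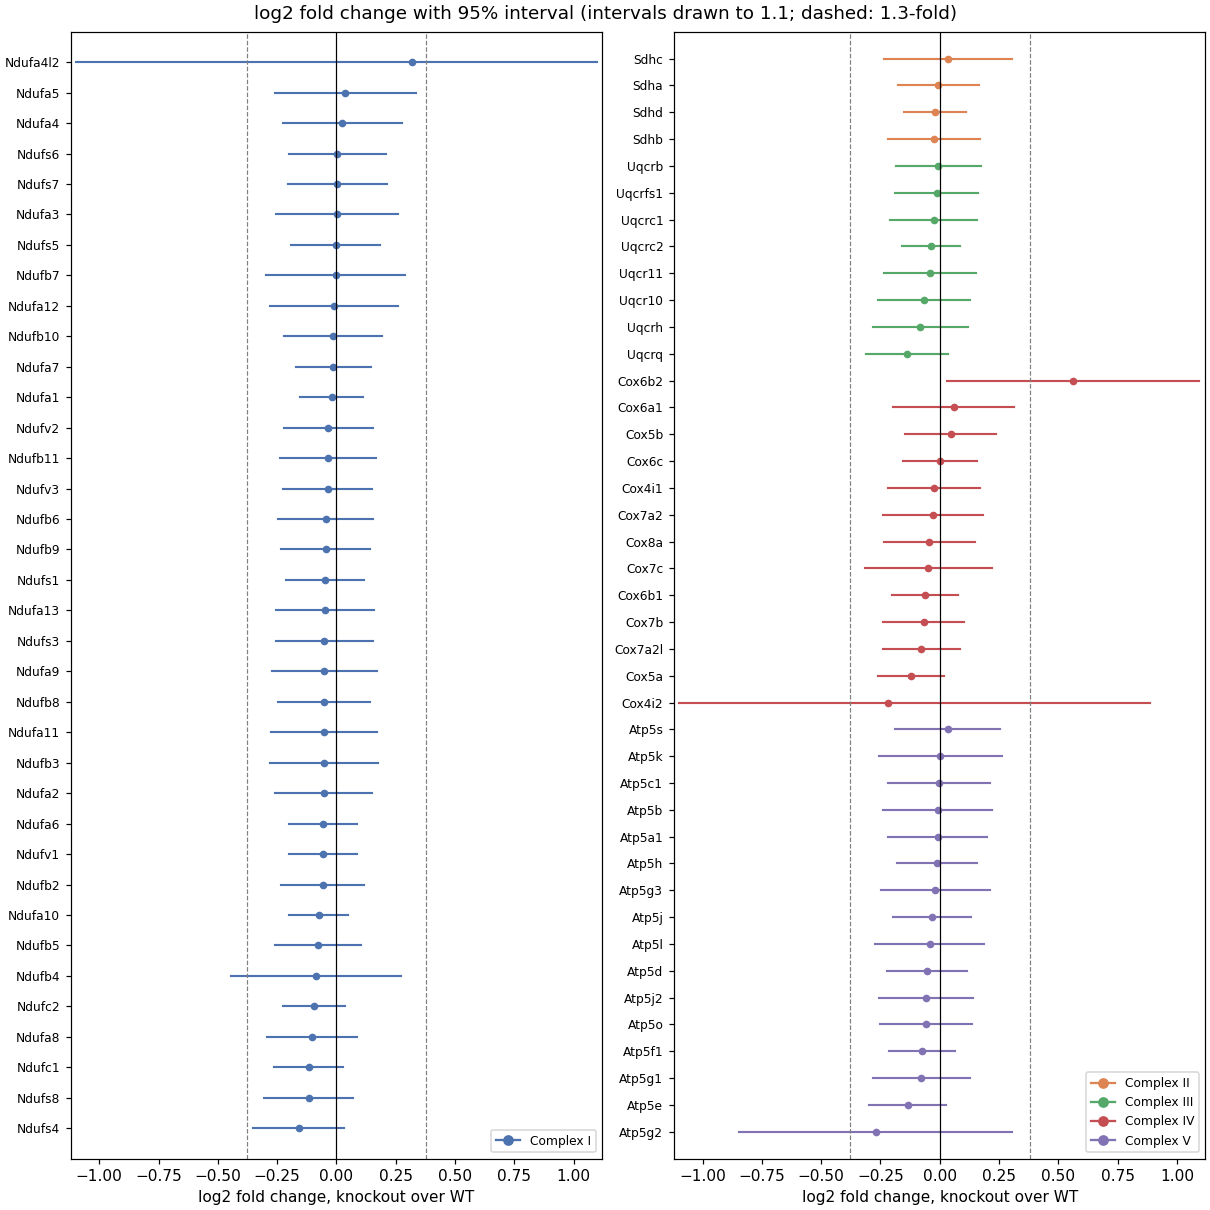
The log2 fold change of 77 of the 78 tested genes (knockout over WT, x axis) with its 95% interval from edgeR, by complex and ordered by size, with dashed lines at 1.3-fold. Points lie close to and mostly left of 0, and Ndufa4l2, Cox4i2, Cox6b2 and Atp5g2 have the wide intervals.

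The direction was uneven. Only 13 of the 78 genes had a log2 fold change above 0, against 49.4% of all genes tested, and 65 lay below, against 50.6%. The median was -0.04 against -0.0022 over all genes, and it ran from -0.09 without WT 1 to -0.0051 without WT 2 (-0.02 without WT 3, -0.01 without knockout 1). In complex I, 6 of 37 lay above 0 (median -0.05), in complex II 1 of 4 (median -0.01), in complex III 0 of 8 (median -0.04), in complex IV 4 of 13 (median -0.04) and in complex V 2 of 16 (median -0.04). The count moved with single libraries. It was 3 without WT 1, 37 without WT 2, 24 without WT 3 and 32 without knockout 1, and 10 with WT 1 and knockout 1 both left out, an alternative chosen after seeing the data. By complex, with 1 library left out, the count ran from 1 to 16 in complex I, 0 to 3 in complexes II and III, 1 to 8 in complex IV and 0 to 8 in complex V. The median stayed below 0 in complexes I and III and turned positive without WT 2 in complexes II, IV and V, without knockout 1 in complexes II and IV, and without WT 3 in complex II. Without WT 1, 1 gene was higher at an unadjusted p under 0.05 (Cox6b2, background 4.16%) and 5 were lower (Ndufa2, Ndufc1, Ndufs8, Uqcr10 and Atp5e, background 1.57%), and none passed the adjusted threshold. The genes tended to be low and high in the same libraries, so the 78 directions are not 78 separate observations.

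The 1 gene whose 3 knockout libraries all lay above all 3 WT libraries was Cox6b2 (background 6.48% of all genes). All 3 knockout libraries lay below all WT libraries for 6 genes, Ndufa10, Ndufc1, Ndufc2, Ndufs4, Cox5a and Atp5f1 (background 5.6%). The 6 of 78 lay near the background and the 1 of 78 below it, and none of the 6 reached an unadjusted p of 0.05.

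Library of origin was the clearest pattern in the chain. WT 1 and knockout 1 were the 2 lowest of the 6 libraries for 46 of the 78 genes (59.0%, background 13.3%), and WT 2 was the highest for 48 of them (61.5%, background 15.3%). Measured from each gene's mean over the 6 libraries, on the log2(CPM + 0.1) scale, the median gene stood at -0.09 in library WT 1, at 0.10 in library WT 2 and at 0.05 in library WT 3. It stood at -0.08 in knockout 1, 0.02 in knockout 2 and 0.01 in knockout 3. The gap between libraries of the same genotype was thus larger than the median log2 fold change between genotypes. All 5 complexes shared it, with shares of 22 of 37, 2 of 4, 4 of 8, 7 of 13 and 11 of 16 genes lowest in those libraries, from complex I to V. Cox4i2 was the only one of the 78 that was above its own mean in both.

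**Figure D2:**
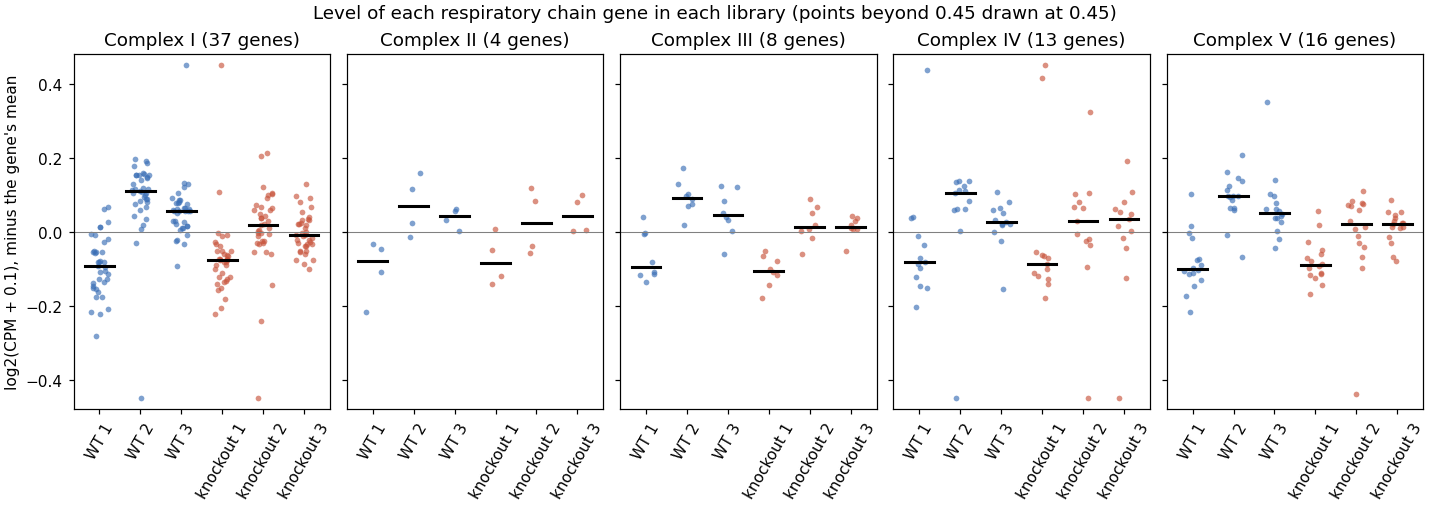
Level of each tested gene in each of the 6 libraries as log2(CPM + 0.1) minus that gene's mean over the libraries (y axis), by complex, with 1 point per gene, a bar at the median, and points beyond the axis range drawn at its edge (WT blue, knockout red). The bulk of the genes lies below 0 in WT 1 (median -0.09) and knockout 1 (median -0.08) and above 0 in WT 2 (median 0.10).

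Other measures moved with that pair of libraries. The 8 smooth muscle markers summed to 23180 CPM in WT 1 and 27816 CPM in knockout 1, below the 29102 to 36198 CPM of the other 4 libraries. The pair was lowest for 5 of the 8 genes (Acta2, Tagln, Cnn1, Smtn and Lmod1). Myh11 was lower in WT 3 (7013 CPM) than in knockout 1 (7110 CPM), Myocd was higher in WT 1 (216 CPM) than in WT 2 (188 CPM) and WT 3 (152 CPM), and Des higher in WT 1 (183 CPM) than in knockout 2 and 3 (148 and 173 CPM). The 8 fibroblast markers summed to 6568 CPM in WT 1 and 5344 CPM in knockout 1, but WT 3 had 5870 CPM too, and WT 2, knockout 2 and knockout 3 had 2942, 1285 and 1813 CPM. The 8 macrophage markers summed to 30.3 and 30.2 CPM in the pair against 6.44 to 17.1 CPM elsewhere, and the macrophage gene Adgre1 stayed at or below 0.268 CPM in every library. In RNA of many cells measured together, fewer cells of a type and less RNA per cell cannot be told apart. The part of cell makeup in the chain's library pattern was not tested.

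**Figure D3:**
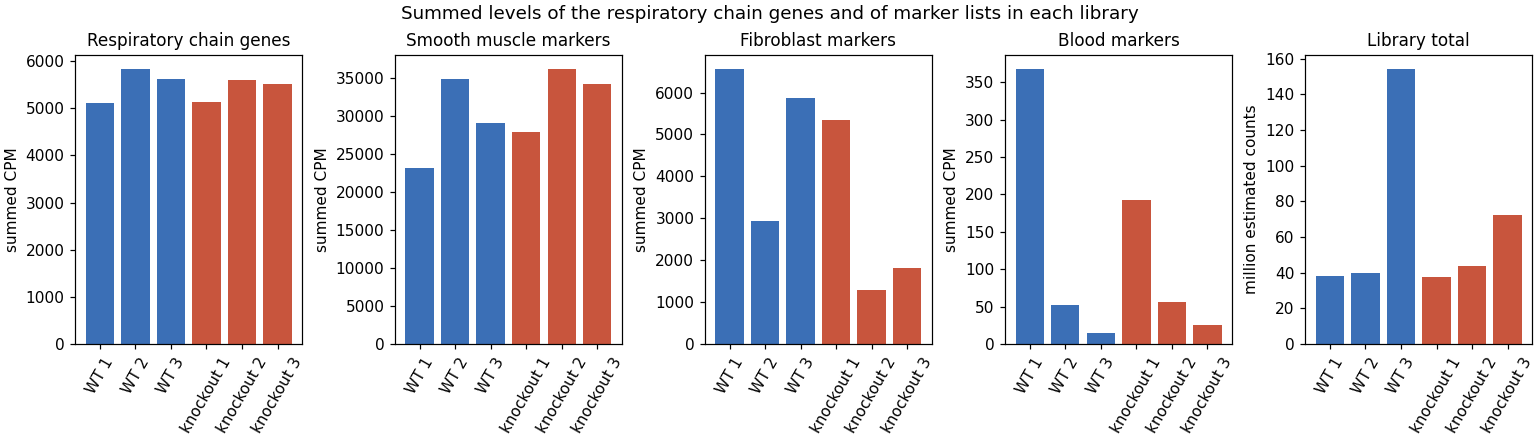
Bars from 0 in each of the 6 libraries (WT blue, knockout red) for the summed CPM of the 80 respiratory chain genes, of the smooth muscle, fibroblast and blood markers, and for the library total of estimated counts. The chain's bars are lowest in WT 1 (5106 CPM) and knockout 1 (5121 CPM), the libraries with the lowest smooth muscle sums (23180 and 27816 CPM) and the highest blood sums (368 and 193 CPM).

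The tricarboxylic acid cycle, which feeds the chain with NADH and succinate, showed the same library pattern. Of its 14 genes, 9 were lowest in WT 1 and knockout 1 (64.3%), and 8 of 14 were higher in the knockout (median 0.0017), a count that went from 1 without WT 1 and 3 without knockout 2 to 12 without WT 2 or without knockout 1. The list does not hold Sdha to Sdhd, which were counted with complex II. Over all genes tested the share lowest in those libraries was 13.3%. Among assembly factors, such genes numbered 3 of 15 for complex I, 0 of 4 for complex II and 1 of 6 for complex III. They numbered 3 of 24 for complex IV and 1 of 4 for complex V. Among electron carriers and other subunits they were 4 of 16, and among regulators of mitochondrial biogenesis 4 of 15. The difference between these shares was not tested.

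Complex I, NADH dehydrogenase, was represented by 37 genes with log2 fold changes from -0.16 to 0.32. The highest value, 0.32 ± 0.91, was that of Ndufa4l2, which like its counterpart Ndufa4 is listed here by symbol. All the others lay at or below 0.04. Ndufs4, an accessory subunit of the matrix arm whose loss is known to cause complex I deficiency (chr13:114287795-114388258, mm10), had the lowest value of the complex. It read 21.8, 22.6 and 21.8 CPM for WT and 17.8, 20.4 and 21.0 CPM for knockout libraries. All 3 knockout libraries were below WT, knockout 1 by the most, and the log2 difference was -0.16 ± 0.08 (95% interval -0.35 to 0.03, adjusted p = 0.859). The small membrane-arm subunit Ndufc1 read 31.6, 34.7 and 34.0 CPM against 30.7, 30.9 and 30.9 CPM, a log2 difference of -0.12 ± 0.06 (adjusted p = 0.859). Its partner Ndufc2, on chromosome 7, read 38.0, 36.9 and 38.2 CPM against 35, 36.4 and 34.6 CPM, a log2 difference of -0.09 ± 0.06 (adjusted p = 0.859). Both kept the genotypes apart, by gaps of under 1 CPM between the nearest libraries.

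Among the core subunits that hold the redox centres, Ndufs8, which carries iron-sulfur clusters toward the quinone site, read 38.0, 45.5 and 42.5 CPM for WT and 37.3, 39.6 and 39.3 CPM for knockout libraries. Its groups overlapped through the low WT 1, with a log2 difference of -0.12 ± 0.08 (adjusted p = 0.864). Ndufa1, an accessory subunit of the membrane arm, varied little, at 30.4, 30.3 and 30.4 CPM for WT and 29.6, 29.6 and 30.6 CPM for knockout libraries. It is named after its values were seen.

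Ndufa10, an accessory subunit of the membrane arm that is also named after its values were seen, read 44.8, 45.9 and 45 CPM against 44, 43.1 and 41.8 CPM (log2 difference -0.07 ± 0.05, adjusted p = 0.866). Ndufb4, another accessory subunit of the membrane arm, was at 3.93 to 4.47 CPM for WT and 3.43 to 4.40 CPM for knockout libraries. The estimated counts divide reads among similar sequences, and several chain genes have processed copies in the genome, so that levels of such genes are uncertain. The other complex I genes not named had log2 fold changes between -0.10 and 0.04.

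Complex II, succinate dehydrogenase, has 4 subunits, all of them nuclear, and its genes were the nearest to 0. Sdha, the flavoprotein that oxidises succinate, read 203, 206 and 217 CPM for WT and 201, 199 and 222 CPM for knockout libraries, a log2 difference of -0.0058 ± 0.07 (95% interval -0.18 to 0.17, adjusted p = 0.993). Sdhb, the iron-sulfur subunit, read 62.3, 72.9 and 68.8 CPM against 61.9, 71.3 and 67.3 CPM (log2 difference -0.02 ± 0.08, adjusted p = 0.970). Both were lowest in knockout 1 or knockout 2 by small margins, and their groups overlapped. The membrane anchor Sdhc read 105, 137 and 123 CPM against 111, 133 and 130 CPM (log2 difference 0.03 ± 0.11, adjusted p = 0.970), and the anchor Sdhd 72.3, 75.9 and 77.6 CPM against 75.2, 72.7 and 74.9 CPM (-0.02 ± 0.05, adjusted p = 0.964). Sdhc had the widest spread of the 4, with replicate 1 of both genotypes lowest.

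Complex III, the cytochrome bc1 complex, had all 8 genes below 0 on the log2 scale, from -0.14 to -0.0060. Uqcrq, a small subunit, read 43.1, 46.2 and 47 CPM for WT and 38.2, 41.5 and 44.1 CPM for knockout libraries, where knockout 3 lay above WT 1. Its log2 difference was -0.14 ± 0.07 (95% interval -0.31 to 0.04, adjusted p = 0.859). Uqcrh, the hinge protein that helps cytochrome c dock, read 41.8, 49.8 and 45.2 CPM against 40.0, 44.4 and 44.8 CPM (log2 difference -0.08 ± 0.08, adjusted p = 0.900). The small subunit Uqcr10 read 43.3, 51.1 and 51.9 CPM against 45.1, 47 and 47.9 CPM (log2 difference -0.07 ± 0.08, adjusted p = 0.919). Uqcrc1, a large core protein, read 141, 161 and 162 CPM against 148, 160 and 148 CPM. Its log2 difference was -0.03 ± 0.08 (adjusted p = 0.968), so that the genotypes overlapped in each of the 4. The Rieske iron-sulfur protein gene Uqcrfs1, not named by the rule, was at -0.01, and the remaining 3 genes lay between -0.04 and -0.0060.

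Complex IV, cytochrome c oxidase, had 13 tested genes from -0.22 to 0.56. Cox5a, a matrix-facing subunit, read 51.1, 53.8 and 50.9 CPM for WT and 45.5, 49.5 and 48.2 CPM for knockout libraries, with all knockout libraries below WT and a log2 difference of -0.12 ± 0.06 (95% interval -0.26 to 0.02, adjusted p = 0.856). Cox7a2l read 37.7, 36.7 and 38.8 CPM against 35.3, 38.4 and 33.6 CPM (log2 difference -0.08 ± 0.07, adjusted p = 0.883). Cox6b1, which faces the intermembrane space, read 64.7, 70.1 and 65.1 CPM against 62.1, 63.6 and 65.9 CPM (log2 difference -0.06 ± 0.06, adjusted p = 0.888). The knockout range reached into the WT range in both of these. Cox7b, on the X chromosome, read 42.8, 46.5 and 45.7 CPM against 39.8, 43.1 and 45.8 CPM (log2 difference -0.07 ± 0.07, adjusted p = 0.903). Cox4i1, the main form of a subunit needed for assembly of the enzyme, read 172, 199 and 187.1 CPM against 170, 188 and 191 CPM (-0.02 ± 0.08, adjusted p = 0.972), with replicate 1 lowest in both genotypes.

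Several complex IV subunits exist in a form used widely and another used in few tissues, and here the widely used forms dominated, by length-scaled levels of 277 CPM per kilobase for Cox6a1 against 0.0286 for Cox6a2 and 83.3 for Cox7a2 against 0.483 for Cox7a1 (WT means). The remaining subunits Cox5b, Cox6c and Cox7c lay at 0.05, 0.0014 and -0.05 on the log2 scale. Cox6a1, Cox7a2 and Cox8a, the forms found outside heart and skeletal muscle, averaged 158, 54.9 and 110 CPM for WT and 164, 53.8 and 107 CPM for knockout libraries. Their log2 differences were 0.06 ± 0.11, -0.03 ± 0.09 and -0.04 ± 0.08. The muscle forms were near 0, with Cox6a2 at or below 0.0584 CPM and Cox7a1 at or below 0.252 CPM in every library. On the log2 scale of CPM + 0.1, the ratio of Cox7a1 to Cox7a2 stood at -7.57 ± 0.08 among WT and at -7.76 ± 0.35 among knockout libraries (SD, n = 3). These levels were not tested.

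Cox6b2, the form of Cox6b known from testis, read 1.53, 1.06 and 1.45 CPM for WT and 2.20, 2.06 and 1.72 CPM for knockout libraries. Every knockout library was above every WT library. Its log2 difference of 0.56 ± 0.22 (95% interval 0.03 to 1.09) had an unadjusted p of 0.0415 and an adjusted p of 0.830. Over the alternatives it stayed between 0.42 and 0.66. The log2 ratio of Cox6b2 to Cox6b1 was -5.54 ± 0.33 for WT and -4.94 ± 0.22 for knockout libraries (SD, n = 3), a difference of 0.61 with an exact two-sided permutation p of 0.1, the smallest that 3 against 3 libraries allow (0.3 after Benjamini-Hochberg adjustment over 3 ratios).

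Cox4i2 and Ndufa4l2, both known as forms that rise when oxygen is low, were the most uneven genes of the chain. Cox4i2 read 7.73, 5.94 and 6.14 CPM for WT and 10.4, 3.27 and 3.52 CPM for knockout libraries, so knockout 1 was the highest of the 6 libraries and the other knockout libraries were the lowest. The log2 difference was -0.22 ± 0.46 (adjusted p = 0.956). Without knockout 1 it was -0.96 (unadjusted p = 0.00163, adjusted p = 0.382, the lowest of a range up to 1.00 over the alternatives), and it turned positive without knockout 2 (0.06) and without knockout 3 (0.04). The log2 ratio of Cox4i2 to Cox4i1 was -4.80 ± 0.30 for WT and -5.18 ± 1.00 for knockout libraries (SD, n = 3), which differed by -0.38 (exact two-sided permutation p = 0.6, adjusted p = 0.7), from -0.96 without knockout 1 to -0.07 without knockout 2.

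Ndufa4l2 read 1.77, 0.491 and 5.09 CPM for WT and 6.25, 1.35 and 1.93 CPM for knockout libraries, with 1 high library in each genotype. Its log2 difference of 0.32 ± 0.91 (95% interval -1.88 to 2.52, adjusted p = 0.966) became negative without WT 2 (-0.15) and without knockout 1 (-0.62), and rose to 1.48 without WT 3. Its counterpart Ndufa4 read 74.7, 83.7 and 77.8 CPM against 69.6, 91.7 and 78.9 CPM (0.02 ± 0.11, adjusted p = 0.978). The log2 ratio of Ndufa4l2 to Ndufa4 was -5.46 ± 1.62 for WT and -4.91 ± 1.3 for knockout libraries (SD, n = 3), a difference of 0.55 (exact two-sided permutation p = 0.7, adjusted p = 0.7) that fell to -0.29 without WT 2 and to -0.17 without knockout 1.

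**Figure D4:**
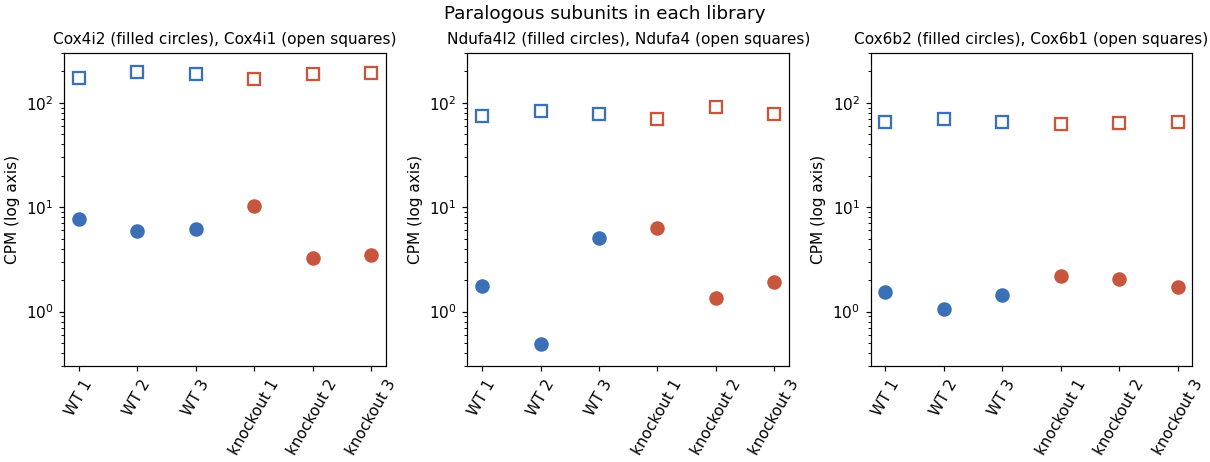
CPM on a log axis in each of the 6 libraries (WT blue, knockout red) for 3 pairs of related subunits, with the less used form as filled circles (Cox4i2, Ndufa4l2, Cox6b2) and its counterpart as open squares (Cox4i1, Ndufa4, Cox6b1). The squares stay level, the circles of Cox4i2 (3.27 to 10.4 CPM) and Ndufa4l2 (0.491 to 6.25 CPM) scatter within genotypes, and those of Cox6b2 lie higher in all 3 knockout libraries.

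Complex V, ATP synthase, had 16 genes from -0.27 to 0.03. Atp5b, the catalytic beta subunit, read 599, 697 and 683 CPM for WT and 607, 695 and 665 CPM for knockout libraries, a log2 difference of -0.0084 ± 0.10 (95% interval -0.24 to 0.22, adjusted p = 0.993). Replicate 1 was lowest in both genotypes and the ranges coincided. Atp5e, the epsilon subunit of the central stalk, read 39.1, 43.4 and 40.9 CPM against 36.1, 36.6 and 39.6 CPM (log2 difference -0.14 ± 0.07, adjusted p = 0.857), with only knockout 3 inside the WT range. Atp5f1, the b subunit of the peripheral stalk (chr3:105942698-105960099, mm10), read 94.1, 97.3 and 95.4 CPM against 85.9, 93.9 and 92.2 CPM (log2 difference -0.08 ± 0.06, adjusted p = 0.872), all knockout libraries below WT by a narrow margin. Atp5s, named as a coupling factor, read 9.12, 9.18 and 9.11 CPM against 9.36, 9.98 and 8.75 CPM (0.03 ± 0.09, adjusted p = 0.963), with knockout libraries on both sides of WT.

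The c subunit of the rotor is made from 3 genes with different targeting peptides and the same mature protein. Per length of transcript Atp5g3 was at 186.7 ± 18.4 CPM per kilobase in WT against 5.48 ± 0.37 for Atp5g1 and 2.08 ± 0.33 for Atp5g2 (SD, n = 3). The value of Atp5g1 is lowered by its chosen transcript of 4715 bases, against 714 for Atp5g3 and 731 for Atp5g2. Without scaling by length, Atp5g1 averaged 25.8 CPM and Atp5g2 1.52 CPM for WT libraries. Atp5g3 averaged 133 ± 13.2 CPM for WT and 132 ± 10.6 CPM for knockout libraries (SD, n = 3), with a log2 difference of -0.02 ± 0.10. Atp5g1 was described above with its seed match. Atp5g2, at 1.48, 1.3 and 1.77 CPM against 1.34, 0.984 and 1.46 CPM, had the lowest log2 value of the chain, -0.27 ± 0.24 (95% interval -0.85 to 0.31, adjusted p = 0.883), and overlapped between genotypes. Atp5g2 and Atp5g3 are named after their values were seen. The remaining complex V genes lay between -0.06 and 0.0032.

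Levels can be set side by side only per length, so CPM was divided by the length in kilobases of each gene's main transcript. Atp5b was highest, at 344 ± 27.6 CPM per kilobase for WT and 342 ± 23.4 for knockout libraries (SD, n = 3). Cox6a1 followed at 277 ± 32.5 in WT, Cox4i1 at 243 ± 17.5 and Cox8a at 200 ± 17.5. The gap between Cox6a1 and Cox4i1 was smaller than the sum of their SDs, and the other gaps in this order were larger. Over all 6 libraries the top gene of complex I was Ndufa11, at 132 CPM per kilobase (Ndufa4 was at 130), that of complex II was Sdha at 71.7 and that of complex III was Uqcr10 at 110. At the low end were Atp5g2 at 1.90, Cox6b2 at 2.85, Ndufa4l2 at 3.01 and Ndufb4 at 4.21 CPM per kilobase, beside Cox6a2 and Cox7a1 below 1. The chosen transcripts of Atp5g1 and Ndufb2 are much longer than the rest of their complex, which lowers their value on this scale, and Atp5o had no transcript to use.

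The other genes of the pathway, taken from lists drawn up with earlier results known, behaved like the subunits in that none passed the test. Of 98 distinct genes tested, 35 were higher in the knockout (background 49.4%), the median log2 difference was -0.03, and 0 had an adjusted p under 0.05. At an unadjusted p under 0.05 there were 2 higher (Hcfc1 and Polrmt, background 3.95%) and 1 lower (Sco2, background 2.01%). Among 16 electron carriers and subunits outside the symbol rule, 2 were higher (median -0.04). Cycs, cytochrome c itself, read 43.6, 44.6 and 44.1 CPM for WT and 43.1, 43.4 and 42.7 CPM for knockout libraries (-0.03 ± 0.05, adjusted p = 0.935), all knockout libraries just below WT. Cyc1, the heme subunit of complex III, read 74.2, 80.4 and 76.7 CPM against 68.6, 75.6 and 76.6 CPM (-0.07 ± 0.07, adjusted p = 0.890).

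Of the assembly factors, 2 of 15 were higher for complex I (median -0.09), 1 of 4 for complex II (median -0.11), 1 of 6 for complex III (median -0.10), 8 of 24 for complex IV (median -0.04) and 1 of 4 for complex V (median -0.01). These small counts moved with single libraries, to 3 for complex V without WT 1 or without knockout 1 (medians 0.02) and 2 without knockout 3 (median 0.0050), to 0 for complex II without WT 3 or knockout 3, and for complex III to 2 without knockout 1 and 0 without WT 1, knockout 2 or knockout 3. For complex I the count was 1 to 3, and for complex IV 7 to 10. Sco2, a copper carrier for complex IV, read 3.14, 3.04 and 2.94 CPM for WT and 2.12, 1.74 and 2.57 CPM for knockout libraries. All knockout libraries were below WT, with a log2 difference of -0.50 ± 0.19 (unadjusted p = 0.0372, adjusted p = 0.830). Timmdc1, an assembly factor of complex I, was uneven in both genotypes, at 11.4, 16.6 and 4.33 CPM against 10.5, 3.87 and 4.91 CPM (-0.74 ± 0.58, adjusted p = 0.872).

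Regulators of mitochondrial biogenesis lay the other way, with 12 of 15 above 0 (background 49.4% of all genes tested) and a median of 0.10. The count was 9 without knockout 2 and 9 without knockout 3, and 13 without WT 1 and knockout 1. Hcfc1, a co-regulator that works with several promoter-binding factors, read 64.9, 67.2 and 58.6 CPM for WT and 79.5, 83.4 and 72.3 CPM for knockout libraries. The genotypes did not overlap, and the log2 difference was 0.30 ± 0.08 (unadjusted p = 0.00696, adjusted p = 0.780). Polrmt, the mitochondrial RNA polymerase, read 26.4, 30.9 and 29.1 CPM against 32.0, 33.5 and 32.9 CPM (0.19 ± 0.07, unadjusted p = 0.0385, adjusted p = 0.830), again without overlap. Tfam, which packs mitochondrial DNA, was at 0.0087 ± 0.10, and Ppargc1a, the coactivator known as PGC-1alpha, at -0.20 ± 0.26, with libraries overlapping in both. The transcripts of 11 of these 15 regulators were longer than 3000 bases. Among other coding genes of that length, 60.8% lay above 0, with a median of 0.04. The part of length in the regulators' direction was not tested.

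Transcript length moved with the direction of change. The median length was 861 bases for the respiratory chain genes, from 371 to 4715, against 3004 bases over all tested genes with a transcript. Among coding genes outside the chain, 202 of 705 with a transcript under 1000 bases lay above 0 (28.7%, median log2 difference -0.06), as did 2289 of 5820 between 1000 and 3000 bases (39.3%, median -0.03) and 4030 of 6632 over 3000 bases (60.8%, median 0.04). Of the 47 chain genes under 1000 bases, 11 lay above 0 (23.4%, median -0.04). Of the 27 chain genes between 1000 and 3000 bases, 1 lay above 0 (3.70%, median -0.04), and of the 3 over 3000 bases, 1 did. The short chain genes stood near other short genes, while those of 1000 to 3000 bases had a lower share above 0 than other genes of that length, a difference that was not tested. The part of length in the chain's direction was not tested, and the length classes were drawn after earlier results were known. For the library pattern, 33 of the 47 short chain genes (70.2%) and 113 of the 705 other short genes (16.0%) were lowest in WT 1 and knockout 1. Between 1000 and 3000 bases the pair was lowest for 10 of 27 chain genes (37.0%) and 980 of 5820 other genes (16.8%). Over 3000 bases it was lowest for 3 of 3 and for 726 of 6632 (10.9%). The part of length in the library pattern was not tested.

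**Figure D5:**
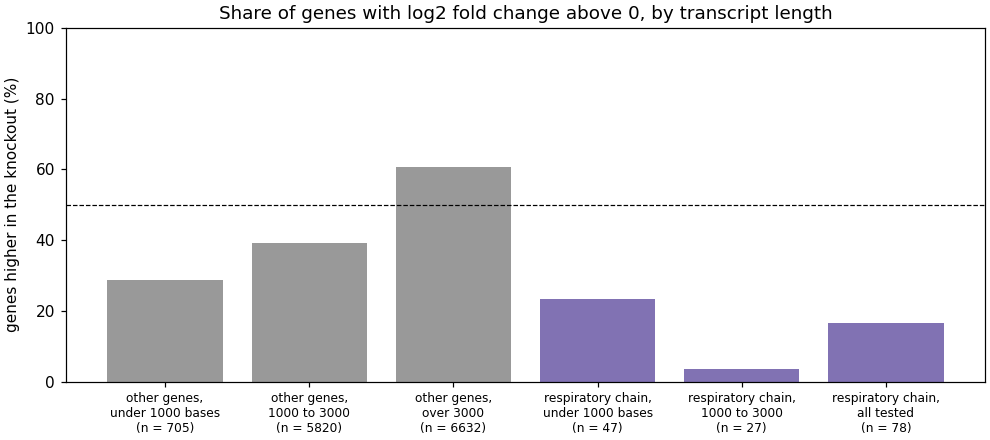
Percent of genes with a log2 fold change above 0 (y axis, from 0 to 100) among coding genes outside the respiratory chain in 3 classes of transcript length (grey) and among respiratory chain genes of 2 length classes and all tested (purple), with the number of genes under each bar and a dashed line at 50%. The grey bars climb from 28.7% to 60.8% with length, and the purple bars stand at 23.4%, 3.70% and 16.7%.

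Because the chain's genes tended to be low and high in the same libraries, their promoters were searched for the letters of factors known to act on nuclear genes of the mitochondrion. RefSeq promoters (GRCm38.p6, 250 bases before to 50 after the start) were matched by symbol for 66 of the 80 genes. They were compared, on both strands, with the promoters of all 27025 RefSeq genes that had one. This background was not limited to the genes tested here, unlike that of the 3′ UTR search. The NRF1 letters GCGCATGC, part of the longer palindrome that the factor binds, were in 10 of the 66 (15.2%) and in 824 of all (3.05%). The letters ACCGGAAG, bound by ETS factors such as GABPA, were in 6 (9.09%) against 2.6% of all. The YY1 letters AAGATGGC were in 10 (15.2%) against 3.19%, and the TATA letters TATAAA in 5 (7.58%) against 15.7%. The ETS and YY1 letters overlapped in 0 of the 66 promoters. These shares are descriptions, and a missing match says only that the letters are not in that window.

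The windows that follow are 30 bases each, written along the gene's strand with the matched letters in capitals. They show NRF1 letters before the RefSeq start of a gene of each of 4 complexes (in Sdhb on the opposite strand). An example each for YY1 and ETS is added (the latter on the opposite strand). By the deposited gene coordinates, the windows of Sdhb and Atp5j lie inside the gene and that of Atp5k crosses its start. They were picked for their matches:
Ndufa11, NRF1, chr17:56717691-56717720, plus strand: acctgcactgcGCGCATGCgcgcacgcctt
Sdhb, NRF1, chr4:140961206-140961235, plus strand: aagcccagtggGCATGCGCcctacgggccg
Cox6a1, NRF1, chr5:115349102-115349131, minus strand: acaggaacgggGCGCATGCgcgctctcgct
Atp5k, NRF1, chr5:108434431-108434460, minus strand: ctttcactgcgGCGCATGCgcctttctggc
Atp5j, YY1, chr16:84835046-84835075, minus strand: aaagtgtaggaAAGATGGCggagtcttagc
Sdhd, ETS, chr9:50603877-50603906, minus strand: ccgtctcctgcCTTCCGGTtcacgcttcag
The 4 genes with NRF1 letters shown lay on both sides of 0, with log2 differences of -0.05 for Ndufa11, -0.02 for Sdhb, 0.06 for Cox6a1 and 0.0032 for Atp5k. Their levels also differed, with 282 CPM per kilobase for Cox6a1 and 49.98 for Atp5k over all libraries. The messages of the factors themselves did not pass the edgeR test. On the log2 scale Nrf1 was at 0.06 ± 0.09 (adjusted p = 0.938), Gabpa at 0.10 ± 0.07 (adjusted p = 0.866) and Yy1 at 0.03 ± 0.09 (adjusted p = 0.970). The part of these factors in the chain's levels was not tested.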

How the data were processed

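RNA of 6 libraries was compared, 3 WT and 3 knockout. The deposited table holds estimated counts by gene without normalization. The submitters' processing notes name mm10, STAR 2.6 and DESeq2, whose roles are not recorded. For the counter and the gene models, the entry is "not given in the sources used here". Such counts divide reads between similar sequences, so genes with paralogs, pseudogenes or overlapping neighbours are uncertain, and with strand unstated antisense overlaps are too. Columns were matched to samples by the sample code, and 0 columns were left without a sample.

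Estimated counts were rounded. The 16654 genes passing filterByExpr entered edgeR 4.0.16 (R 4.3.3) with TMM factors, robust quasi-likelihood fits and two-sided F tests of knockout against WT, with Benjamini-Hochberg adjustment over all of them. CPM values are TMM-scaled, and log2 ratios of paired forms use CPM + 0.1 with exact permutation tests. Intervals reflect the spread among the 6 libraries. Replicate pairs differed beyond counting noise. GENCODE M21 gave transcripts (best APPRIS tag, then transcript support, then length) and 3′ UTRs of at least 8 bases, RefSeq the promoters and the microRNA.

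The members and gene lists were chosen with earlier results of these data known. Named subunits are, per complex, those with the smallest p among genes of mean log2 CPM of at least 2, key subunits and the forms of complex IV, and per list up to 3 genes. Of the subunits so named, 1 is not reported here, and named list genes without values in the text enter through the counts and medians of their lists. The NRF1 letters and the 1.3-fold bound were set after results were seen. Alternatives were DESeq2 1.42.0 and its size factors, upper-quartile factors, no filter, at least 1 CPM in 3 samples, limma 3.58.1 with sample weights, a replicate block, an adjusted p under 0.1, a CPM pseudocount of 1, leaving out each library, and, chosen after seeing the data, leaving out WT 1 and knockout 1 together. Python 3.11.15, numpy 2.4.6, pandas 2.3.3 and matplotlib 3.10.9 were used.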

Additional observations from a re-analysis of the deposited data

How the results depend on the processing

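The calls depended little on the settings: 0 respiratory chain genes were called under any alternative run, while the count over all genes was 65 with DESeq2, 1 with the replicate block and 0 to 1 with a library left out. Respiratory chain genes above 0 numbered 8 with upper-quartile factors and 3 to 37 with a library left out. Same-number deviations correlated at 0.289, 0.317 and -0.026. Replicates 1 and replicates 2 each matched best with each other, but replicates 3 did not, so the numbers were not taken to pair the samples. With the replicate block 14 genes lay above 0 (median -0.04). At an unadjusted p under 0.05 in that edgeR fit, 1 chain gene was lower (Uqcrq, background 5.51% of all genes) and 0 were higher (background 7.14%). The ratio of Ndufa4l2 to Ndufa4 ran from -0.29 to 1.33 with a library left out. Log2 fold changes that changed sign, all near 0 or with wide error, gave with limma -0.00097 for Atp5s, -0.47 for Ndufa4l2 and 0.0095 for Sdha, and with upper-quartile factors -0.0038 for Tfam. Without WT 1 and knockout 1 they were 0.041 for Fmc1, -0.82 for Ndufa4l2, 0.16 for Ppargc1a and 0.0081 for Tmem70. With a library left out they ran from -0.073 to 0.040 for Atp5b, -0.015 to 0.082 for Atp5s, -0.075 to 0.024 for Cox4i1, -0.96 to 0.060 for Cox4i2, -0.024 to 0.14 for Cox6a1, -0.10 to 0.028 for Cox7a2, -0.11 to 0.0030 for Cox8a, -0.061 to 0.017 for Fmc1, -0.084 to 0.11 for Ndufa4, -0.62 to 1.48 for Ndufa4l2, -0.10 to 0.012 for Ndufv2, -0.059 to 0.021 for Sdha, -0.083 to 0.024 for Sdhb, -0.059 to 0.12 for Sdhc, -0.048 to 0.00024 for Sdhd, -0.031 to 0.22 for Suclg2, -0.057 to 0.087 for Tfam, -0.084 to 0.028 for Tmem70 and -0.087 to 0.0066 for Uqcrc1. The cause was not tested. The median 95% interval reached 0.19 on the log2 scale to either side, before any adjustment. Changes smaller than that in 1 typical subunit were not detectable here. Larger ones could also be missed after adjustment over all genes, as Cox6b2 at 0.56 had an adjusted p of 0.830 in edgeR.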
